A study of Sus scrofa with 16 samples.

Results

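The C/EBP (CCAAT/enhancer-binding protein) genes CEBPA, CEBPB, CEBPD, CEBPE and CEBPG were examined as 5 of the 19560 protein-coding genes (PCGs) that RefSeq places on the chromosomes of the pig genome assembly Sscrofa11.1. Every accessible chromatin region (ACR) that overlapped 1 of these genes or lay within 50 kb of it was taken as belonging to it. This gave 132 of the 288665 ACRs found when overlapping peaks of all lists were joined. Chromatin accessibility had been profiled by ATAC-seq, in which a transposase cuts open DNA, in tissues of female domestic crossbred pigs. Newborn pigs (day 0 in the labels) gave heart, kidney, lung, muscle, spleen and liver, and liver was also taken from suckling (day 28) and adult (day 180) pigs. Each of these 8 groups had 2 replicates and 1 list of consensus peaks, which are peaks matched between the replicates. By the study's methods the pigs were full sisters, muscle was longissimus dorsi, and all newborn tissues came from the same pair of animals. The data were bulk tissue, so that fewer cells of a type and less open chromatin per cell cannot be told apart.

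C/EBP proteins are transcription factors with a basic region that contacts DNA and a leucine zipper through which they pair with each other and with related factors. They recognise a palindrome built on the letters GCAA, and are best known for switching on genes of hepatocytes, fat cells and granulocytes. In liver, C/EBPα is associated with the mature metabolic programme, and C/EBPβ and C/EBPδ with the acute-phase response to inflammation. C/EBPε acts in late granulocyte maturation, while C/EBPγ lacks a strong activation domain and works as a partner of other zipper proteins.

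The family was chosen by the share of liver peaks of a single age that held a C/EBP pattern, so the following values are a description of that choice and were not tested. The pattern was TTGCNNAA, searched on both strands within 100 bp of each summit. Outside PCG promoters, it occurred in 18.8% of 19448 peaks called in adult liver and at neither other age. The share was 11.1% of 20011 newborn-only peaks and 5.69% of 35297 suckling-only peaks. Adult-only peaks also held it more often than adult peaks shared with another age, at 14.2% of 70943. The adult-minus-newborn difference was 7.71 percentage points. It ranged from 2.6 to 14 when each list was cut to its 57126 strongest peaks by 1 replicate alone. The full palindrome TTGCGCAA, a subset of the pattern, was rare, in 0.195% of adult-only and 0.0949% of newborn-only peaks.

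Sequences around 6 summits in adult liver are printed here because they show what the pattern looked like in the ACRs on which the results below turn. They were chosen after their values were seen, from summits that overlapped no annotated exon. Each runs 5′ to 3′ on the plus strand of Sscrofa11.1 over 201 bp, with the summit in the middle and matches to TTGCNNAA on either strand in capitals. Names give the gene and the distance of the summit from the gene's annotated start in bp, negative upstream.
CEBPA 22151: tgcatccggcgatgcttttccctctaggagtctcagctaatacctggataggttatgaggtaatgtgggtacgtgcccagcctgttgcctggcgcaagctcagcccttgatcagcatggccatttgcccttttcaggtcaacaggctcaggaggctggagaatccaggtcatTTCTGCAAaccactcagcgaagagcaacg
CEBPB -3237: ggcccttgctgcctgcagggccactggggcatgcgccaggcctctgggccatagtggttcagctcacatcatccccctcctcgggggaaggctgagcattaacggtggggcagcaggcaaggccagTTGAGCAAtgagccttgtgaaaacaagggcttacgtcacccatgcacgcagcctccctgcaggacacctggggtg
CEBPB 28194: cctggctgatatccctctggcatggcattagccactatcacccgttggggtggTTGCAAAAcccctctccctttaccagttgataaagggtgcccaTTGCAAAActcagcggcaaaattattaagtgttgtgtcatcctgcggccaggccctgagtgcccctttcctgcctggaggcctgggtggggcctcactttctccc
CEBPB 40085: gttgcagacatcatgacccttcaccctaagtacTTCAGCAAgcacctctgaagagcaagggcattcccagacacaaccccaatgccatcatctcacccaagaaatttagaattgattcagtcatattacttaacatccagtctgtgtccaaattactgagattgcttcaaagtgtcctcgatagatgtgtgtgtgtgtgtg
CEBPE 11785: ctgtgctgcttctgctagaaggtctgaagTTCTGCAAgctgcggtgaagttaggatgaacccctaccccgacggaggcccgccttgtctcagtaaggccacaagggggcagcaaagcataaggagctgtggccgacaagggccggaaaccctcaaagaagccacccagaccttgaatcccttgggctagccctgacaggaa
CEBPG 26252: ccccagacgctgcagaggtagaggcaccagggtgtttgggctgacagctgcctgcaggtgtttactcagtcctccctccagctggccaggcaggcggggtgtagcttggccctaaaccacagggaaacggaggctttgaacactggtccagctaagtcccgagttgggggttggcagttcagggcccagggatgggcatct
The first, at chr6:43063633-43063833, lay beyond the 3′ end of CEBPA in an ACR listed in liver at all 3 ages and in no other tissue. CEBPB -3237 (chr17:51719296-51719496) was likewise listed in liver alone, and its match read TTGAGCAA, 29 bp from the summit. CEBPB 28194 (chr17:51750727-51750927) was listed in suckling and adult liver and held 2 copies of TTGCAAAA, while CEBPB 40085 (chr17:51762618-51762818) was listed in adult liver alone. CEBPE 11785 (chr7:75938337-75938537) was listed in all 8 groups. CEBPG 26252 (chr6:43191054-43191254), in an intron of PEPD and listed in liver at all ages only, held no match and is shown for contrast. A match is a description of letters and no evidence that a factor was bound.

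**Figure D1:**
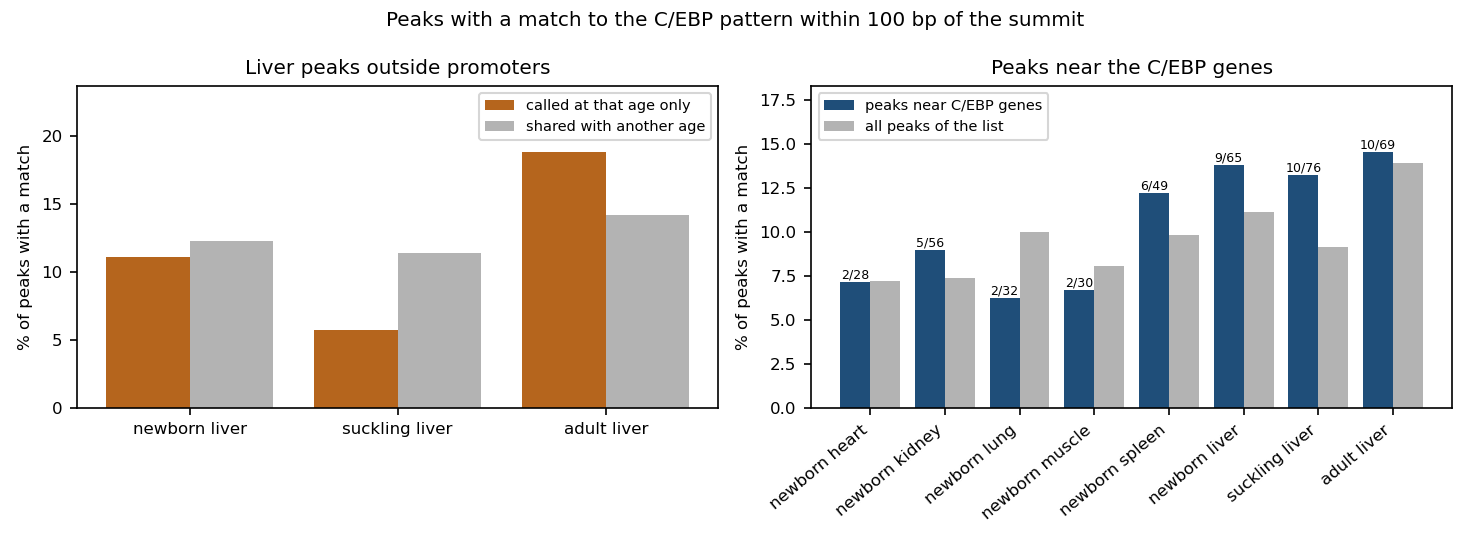
Share of peaks (y axis, %) with a match to the C/EBP pattern within 100 bp of the summit. Left, liver peaks outside promoters, called at 1 age only or shared with another age, where 18.8% of adult-only peaks had a match; right, peaks within 50 kb of the C/EBP genes (numbers above bars, peaks with a match of all peaks) beside all peaks of each list, where 10 of 69 adult liver peaks had a match.

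Peaks near the C/EBP genes themselves held the pattern about as often as other peaks of adult liver. Of 69 adult liver peaks near the family, 10 had a match, or 14.5%, against 13.9% of all 107530 peaks on chromosomes. In newborn liver 9 of 65 peaks (13.8%) had one against 11.1% of all, and in suckling liver 10 of 76 (13.2%) against 9.12%. In adult liver, CEBPB had 6 of the 10 matches, among 17 peaks. CEBPD had 2 among 14 peaks, CEBPA 1 among 16 and CEBPE 1 among 9. CEBPG had 0 among its 13 adult liver peaks. With so few peaks per gene, the counts other than that of CEBPB are near the background. In the other newborn tissues, matches near the family numbered 2 of 28 in heart (7.14% against 7.19% of all peaks), 5 of 56 in kidney (8.93% against 7.34%), 2 of 32 in lung (6.25% against 9.97%), 2 of 30 in muscle (6.67% against 8.03%) and 6 of 49 in spleen (12.2% against 9.83%). The palindrome TTGCGCAA was found in 0 peaks near the family in every list, and in 0.194% of all adult liver peaks. A related composite pattern bound by pairs of C/EBP and ATF proteins, TGATGCAA, which may overlap a match of TTGCNNAA but cannot be one, occurred in 2 of the 69 adult liver peaks (2.9%, against 1.25% of all), both near CEBPB.

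The 5 genes lie at 4 places. CEBPA (chr6:43083200-43085884, minus strand), CEBPB (chr17:51722633-51723673) and CEBPD (chr4:79872863-79874481) each have 1 exon. CEBPE (chr7:75926652-75929949) has 2 exons, and CEBPG (chr6:43164902-43175002) has 10 distinct exons and 5 annotated starts. CEBPA and CEBPG lie 79017 bp apart, so their 50 kb windows overlap by 20983 bp and share 3 ACRs. The windows hold no other PCG for CEBPA, TMEM189 for CEBPB, PRKDC and SPIDR for CEBPD, SLC7A8, C7H14orf119 and ACIN1 for CEBPE, and PEPD for CEBPG. An ACR in such a window may belong to a neighbour, and the data do not assign it.

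The lists held between 57126 peaks in newborn muscle and 141689 in suckling liver, and a longer list covers more of any locus. Read depth was not in the files used, so no interval from counting could be given. Between 19.2% (newborn liver) and 50.4% (adult liver) of the peaks reached an irreproducible discovery rate (IDR) of 0.05 or lower, the lists having been deposited without that threshold. Strength is given here as a percentile, the rank of a peak's −log10 p among all peaks of its replicate, where the highest is strongest. Both replicates are always given, replicate 1 first. With 2 replicates a side, an exact permutation test cannot give a two-sided p below 0.333, so no group difference was tested. Labels of the tissues were checked on promoter peaks of marker genes. Hepatocyte markers had a promoter peak for 6 of 8 genes in newborn liver and 7 of 8 in suckling and adult liver, against 1 to 3 elsewhere, with CPS1 in no list and ALB in suckling and adult liver only. Lung epithelium markers had 4 of 4 in lung, skeletal muscle markers 4 of 4 in muscle, kidney epithelium markers 3 of 4 in kidney, cardiomyocyte markers 3 of the 3 matched in heart, and T cell and B cell markers 4 of 4 each in spleen. These were not specific to the tissue: T cell markers also had 4 of 4 in suckling and 3 of 4 in adult liver, B cell markers 3 of 4 in kidney, skeletal muscle markers 3 of 4 in kidney and in newborn liver, and cardiomyocyte markers 2 of 3 in kidney. Among all PCGs, 61.4% to 75.1% had a promoter peak, depending on the list. With 73.5% in newborn liver and 75.1% in kidney, the hepatocyte and kidney marker counts in these lists were near the background. MYH6 was not matched by name.

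All 5 C/EBP promoters carried a peak in every tissue and at every age. A promoter was taken as 2.2 kb upstream to 500 bp downstream of an annotated start, and each of the 5 genes had a promoter peak in all 8 lists. Among all PCGs, 56.7% had one in all 8 lists. By list, the shares of PCGs were 67.9% in heart, 75.1% in kidney, 70.4% in lung, 61.4% in muscle, 68.8% in spleen, 73.5% in newborn liver, 74.8% in suckling liver and 69.7% in adult liver. The mean percentile of the 5 promoters was 92.1 in kidney, 90.4 in lung, 92.5 in newborn liver and 92.5 in suckling liver, against medians over all listed PCG promoters of 88.9, 85.6, 84.8 and 88.5. It was 55.8 in heart, 67.0 in muscle, 75.6 in spleen and 82.3 in adult liver, against medians of 82.8, 77.7, 86.9 and 87.5. Those 4 lists also held the promoters whose replicates lay farthest apart. The call in every list rested on peaks of any IDR: with an IDR of 0.05 or lower, 0 of the 5 promoters remained in all 8 lists, and 3 of 5 did when every list was cut to its 57126 strongest peaks. It also rested on the promoter width: a narrow promoter, of 1 kb upstream and 100 bp downstream, left 4 of 5 in all 8 lists. The share of all PCGs was not recomputed at these settings.

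**Figure D2:**
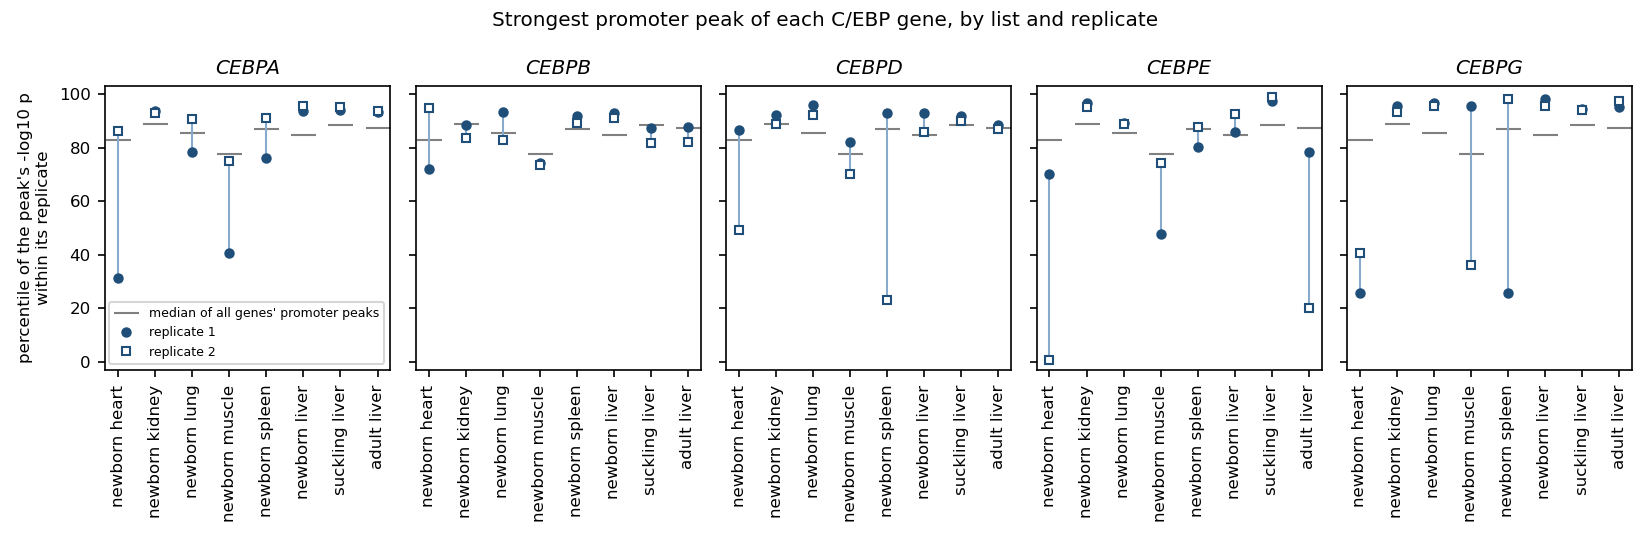
Percentile of −log10 p within its replicate (y axis) of the strongest promoter peak of each C/EBP gene in the 8 lists (x axis). Filled circles are replicate 1, open squares replicate 2, joined by a line, and grey dashes mark the median over all listed PCG promoters; in newborn heart, CEBPE spans 70.3 to 0.709.

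CEBPA, the factor of mature hepatocytes, fat cells and early granulocytes, had a strong promoter peak at every liver age. The peak reached percentiles of 93.8 and 95.7 in newborn, 94.0 and 95.2 in suckling and 93.3 and 93.8 in adult liver. In kidney it stood at 93.8 and 92.9, in lung at 78.5 and 90.6, and in spleen at 76.0 and 90.9. In heart it stood at 31.2 and 86.1, and in muscle at 40.8 and 74.9. All liver and kidney replicates lay above every heart and muscle replicate, heart overlapped with lung and spleen, and both muscle replicates lay below those of lung and spleen.

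The number of peaks around CEBPA differed between tissues. Within 50 kb there were 3 peaks in heart and 2 in muscle, where the median PCG had 6 and 5. There were 15 in kidney (median 11), 8 in lung (median 7) and 20 in spleen (median 8), and the spleen count lay at percentile 94.3 among PCGs. Each liver age had 16, against medians of 12, 13 and 10. Of the 20 spleen peaks 3 reached an IDR of 0.05 or lower, as did 2, 8 and 10 of the 16 peaks in newborn, suckling and adult liver. Over the whole lists this share was 25.9% in spleen and 19.2%, 33.8% and 50.4% at the liver ages. The count near CEBPA was 0 in heart and in muscle, where 19.9% and 29.9% of all peaks reached it. With 3 and 2 peaks, a count of 0 is near the background.

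Liver ACRs of CEBPA lay mainly on its 3′ side. Their percentiles below refer to the strongest peak of each list. An ACR centred at 26196 bp (chr6:43059201-43060174) reached 92.9 and 91.4 in newborn, 89.1 and 89.8 in suckling and 93.5 and 90.5 in adult liver. It was also listed in kidney (90.4 and 93.2) and lung (79.7 and 69.2). A pair of ACRs was listed at all 3 liver ages and in no other tissue, at 16941 and 22194 bp. The first had 75.9 and 41.6 in newborn, 44.8 and 23.9 in suckling and 79.2 and 77.7 in adult liver. The second, which holds the sequence CEBPA 22151, had 51.8 and 7.75 in newborn, 54.0 and 46.0 in suckling and 77.0 and 83.7 in adult liver. In both, each adult replicate was above every newborn and suckling replicate, although percentiles of lists of different length are not a common scale.

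Some ACRs around CEBPA were called in spleen and in no other newborn tissue. They numbered 9 of the gene's 31 ACRs, where 8.11% of all newborn ACRs were spleen-only. Across all 8 lists the spleen-only ACRs with the highest percentiles were at 34087 bp (80.5 and 67.0), 24986 bp (60.2 and 74.7) and 18345 bp (61.4 and 67.4). A further ACR at 27282 bp was shared by lung (79.9 and 84.5) and spleen (46.8 and 29.7). These interleaved with the liver ACRs on the same side of the gene. Promoter peaks of neutrophil and myeloid markers were listed for 5 of 8 genes in spleen, 6, 5 and 5 of 8 in newborn, suckling and adult liver, 3 each in kidney and lung, and 1 each in heart and muscle. Among all PCGs the shares were 68.8% in spleen, 73.5%, 74.8% and 69.7% at the liver ages and 61.4% to 75.1% in the other tissues. The marker counts were thus near or below the background. The part of neutrophil and myeloid cells in the CEBPA peaks was not tested.

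**Figure D3:**
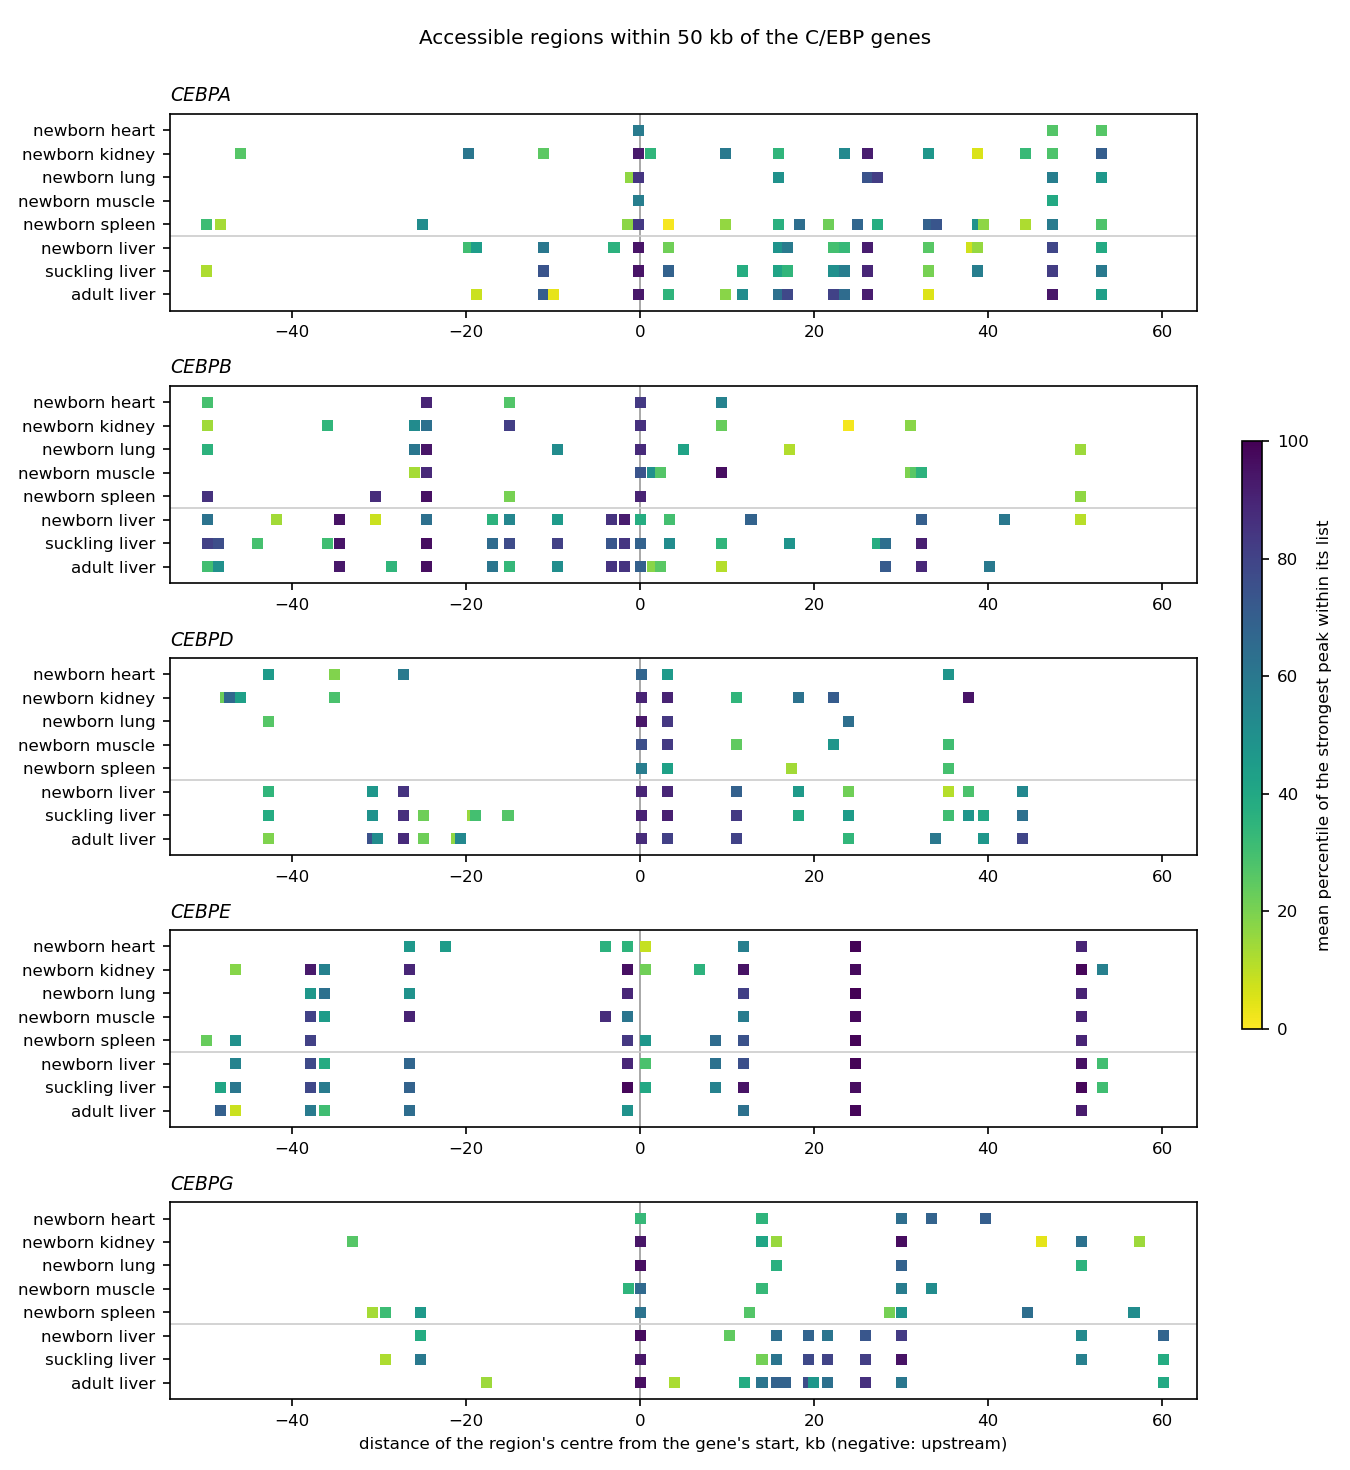
ACRs within 50 kb of each C/EBP gene, placed by the distance of their centre from the gene's start (x axis, kb, negative upstream, in the direction of transcription) in the 8 lists (y axis). Colour gives the mean percentile of the strongest peak of the ACR in that list; CEBPA has 3 peaks in heart and 20 in spleen.

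CEBPB, a factor of the acute-phase response, showed the clearest difference between liver and other tissues at its promoter. In heart, kidney, lung, muscle and spleen its strongest promoter peak lay at the start of the gene, with summits between −563 and −355 bp. In liver at all 3 ages the strongest peak lay farther upstream, with summits at −1706, −1707 and −1735 bp. That upstream ACR reached 93.0 and 90.9 in newborn, 87.2 and 81.8 in suckling and 87.7 and 82.1 in adult liver, and was listed in no other tissue.

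The ACR over the start of CEBPB (chr17:51721620-51723712) was listed in all 8 groups. It reached 67.8 and 8.14 in newborn, 66.5 and 71.3 in suckling and 71.6 and 67.9 in adult liver. Outside liver it reached 72.2 and 94.7 in heart, 88.6 and 83.7 in kidney, 93.4 and 82.7 in lung, 74.3 and 73.6 in muscle and 91.8 and 89.2 in spleen. Every replicate outside liver was thus above every liver replicate at the start, narrowly so for heart (72.2) against adult liver (71.6). Percentiles of lists of different length are not a common scale. The upstream ACR, by contrast, was called in liver alone. With a narrow promoter of 1 kb upstream and 100 bp downstream, which leaves the upstream ACR out, the mean percentile of CEBPB over the lists was 74.8 in place of 85.4.

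CEBPB had 4 ACRs listed at all liver ages and in no other tissue. Besides the one at −1748 bp, these were centred at −3245, −16926 and −34478 bp. The ACR at −3245 bp reached 88.5 and 82.0 in newborn, 64.6 and 81.7 in suckling and 88.1 and 81.9 in adult liver. The one at −34478 bp, in an intron of TMEM189, reached 94.6 and 95.6, 94.9 and 94.6, and 97.1 and 90.0 at the same ages. An ACR at 32307 bp was shared by the 3 liver ages and muscle, with 85.3 and 54.6, 89.4 and 92.7, and 84.9 and 93.2 in liver against 48.3 and 23.0 in muscle.

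Several ACRs of CEBPB differed with liver age. The ACR at 28178 bp, with 2 copies of TTGCAAAA, was not called in newborn liver, and reached 58.1 and 70.3 in suckling and 58.1 and 85.6 in adult liver. The ACR at 40154 bp was called in adult liver alone, at 60.3 and 58.8. In the other direction, ACRs at 12754 bp (62.2 and 75.2) and 41896 bp (80.8 and 39.3) were called in newborn liver alone. In muscle the gene had another strong ACR, at 9378 bp, with 96.4 and 96.1, against 44.0 and 67.1 in heart, 15.8 and 31.1 in kidney, 27.8 and 41.5 in suckling and 0.644 and 22.0 in adult liver. CEBPB had 5 peaks in heart, 11 in kidney, 8 in lung, 9 in muscle, 6 in spleen and 16, 19 and 17 in newborn, suckling and adult liver. The median PCG had 6, 11, 7, 5 and 8 in those tissues and 12, 13 and 10 at the liver ages.

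CEBPD, which responds early to inflammatory signals, had its promoter peak at the gene's start in all lists. The peak reached 93.0 and 86.0 in newborn, 91.8 and 89.8 in suckling and 88.6 and 86.9 in adult liver. Lung stood at 96.0 and 92.2 and kidney at 92.2 and 88.9, while muscle had 82.1 and 70.1 and heart 86.6 and 49.1. In spleen the replicates disagreed, at 93.0 and 23.1. Newborn liver overlapped with both later ages and with kidney, and the suckling replicates lay just above the adult ones.

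An ACR downstream of CEBPD, centred at 3122 bp in SPIDR (chr4:79875187-79876782), was also listed in all 8 groups. Its percentiles lay between 79.0 and 93.9 in the liver, kidney, lung and muscle replicates, and between 22.9 and 62.7 in those of heart and spleen. The ACR at −27179 bp, in PRKDC, reached 86.8 and 83.1, 88.9 and 84.5, and 88.3 and 87.8 in newborn, suckling and adult liver, and was otherwise listed in heart alone (62.7 and 55.3). ACRs of liver at all ages and no other tissue were those at −30747 and 43968 bp. The latter reached 77.7 and 28.8 in newborn, 69.4 and 57.2 in suckling and 81.6 and 77.6 in adult liver. An ACR at 37766 bp was strongest in kidney, at 95.0 and 94.5, and was called in newborn (12.8 and 44.2) and suckling liver (57.1 and 38.1) but not in adult liver. CEBPD had 12, 16 and 14 peaks at the 3 liver ages, where the median PCG had 12, 13 and 10. It had 5 to 10 in the other tissues, where the medians were 5 to 11.

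CEBPE is a factor of late granulocytes. Of its 16 ACRs 0 were listed at all liver ages and in no other tissue, and 0 of its 12 liver ACRs were called in adult liver only among the liver ages. These patterns took 4.66% and 11.3% of all ACRs, so that a count of 0 among so few is near the background. Of the 16, 4 were listed in all 8 groups. One of these lay across the promoters of ACIN1 and C7H14orf119 at 24706 bp, with percentiles of 96.0 or higher in all 16 replicates, and another in exons of ACIN1. The strongest promoter peak of CEBPE lay at −1259 to −1299 bp. It reached 86.0 and 92.6 in newborn and 97.5 and 98.8 in suckling liver, but 78.3 and 20.1 in adult liver. In kidney it had 96.7 and 95.2, in lung 89.3 and 88.9, in spleen 80.1 and 87.8, in muscle 47.8 and 74.1 and in heart 70.3 and 0.709. Both adult replicates were below all newborn and suckling liver replicates.

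Over the first part of the CEBPE gene itself (chr7:75926910-75927624), an ACR was called in newborn liver (19.3 and 38.0), suckling liver (52.4 and 27.5), spleen (40.2 and 54.0), kidney (18.9 and 24.0) and heart (5.32 and 12.4). It was not called in adult liver, lung or muscle. The ACR at 8726 bp was also listed in newborn liver (49.4 and 75.6), suckling liver (38.7 and 72.4) and spleen (45.7 and 84.3), but not in adult liver. At 11859 bp an ACR of all 8 groups reached 65.1 and 85.7 in newborn, 93.5 and 96.5 in suckling and 59.9 and 66.2 in adult liver. Erythroid markers had promoter peaks for 7, 5 and 4 of 8 genes in newborn, suckling and adult liver and 8 of 8 in spleen. Neutrophil and myeloid markers had 6, 5 and 5 of 8 at the liver ages and 5 of 8 in spleen. Among all PCGs the shares were 73.5%, 74.8% and 69.7% at the liver ages and 68.8% in spleen. The part of either kind of cell in the CEBPE peaks was not tested. The gene had 11, 13 and 9 peaks at the 3 liver ages, near the medians over all PCGs of 12, 13 and 10.

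CEBPG, the partner without a strong activation domain, had a promoter peak at its 5′ end in all lists. It reached 98.3 and 95.7 in newborn, 94.6 and 94.0 in suckling and 95.0 and 97.3 in adult liver, 95.7 and 93.3 in kidney and 96.8 and 95.5 in lung. Heart was far lower, at 25.7 and 40.8. In muscle the replicates stood at 95.5 and 36.2 and in spleen at 25.8 and 98.3, so that neither gives a level. All replicates of liver, kidney and lung stood between 93.3 and 98.3.

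Downstream of CEBPG, introns of PEPD held 18 of its 28 ACRs. Of the ACRs listed at all liver ages and no other tissue, 3 lay close together at 19310, 21586 and 25934 bp. The first reached 72.5 and 63.4 in newborn, 77.3 and 78.4 in suckling and 79.7 and 73.6 in adult liver. The second reached 75.6 and 46.8, 81.1 and 78.3, and 56.0 and 70.6 at the same ages. The third, which holds the sequence CEBPG 26252, reached 70.5 and 76.0, 82.4 and 81.0, and 86.9 and 85.2. The fourth such ACR lay at 60118 bp, reaching 79.8 and 55.6, 42.0 and 34.9, and 28.4 and 50.8. An ACR at 16751 bp, next to the first 3, was called in adult liver alone (77.6 and 59.4). The ACR at 30007 bp was listed in all 8 groups and was strongest in kidney (98.3 and 95.3) and suckling liver (94.1 and 96.6). The gene had 10, 13 and 13 peaks at the 3 liver ages, 9 in kidney and in spleen, 5 in heart and in muscle, and 4 in lung. The median PCG had 12, 13 and 10 at the liver ages, 11 in kidney, 8 in spleen, 6 in heart, 5 in muscle and 7 in lung.

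**Figure D4:**
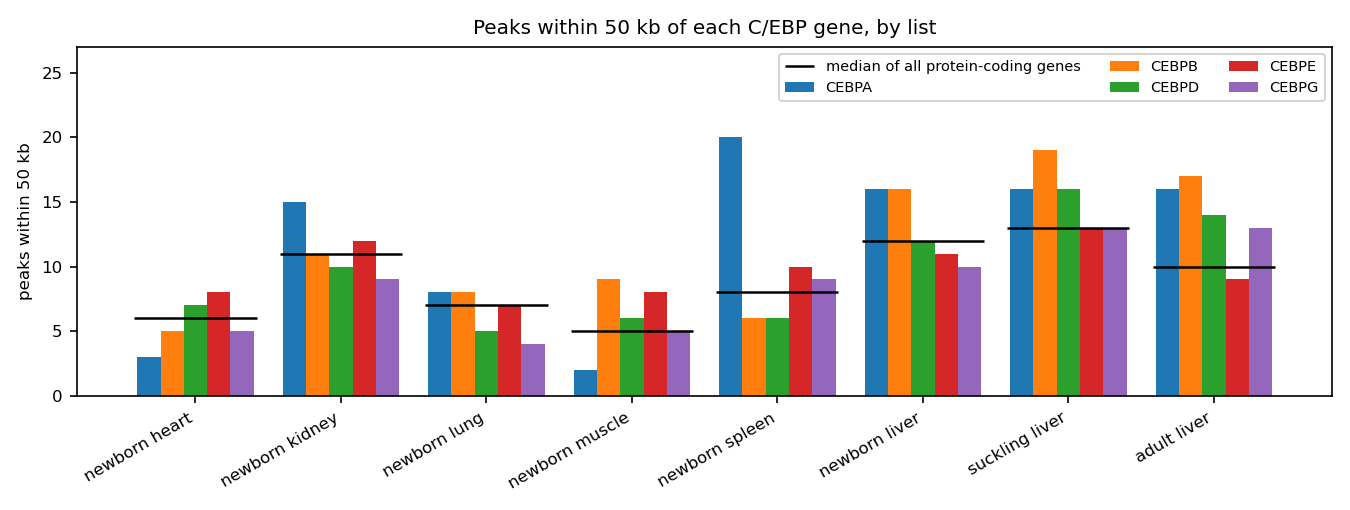
Number of peaks within 50 kb of each C/EBP gene (y axis) in the 8 lists (x axis), with black lines for the median over all PCGs of that list. CEBPA ranges from 2 peaks in muscle to 20 in spleen.

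Across liver ages, the most frequent pattern near the C/EBP genes was a call at all 3 ages, as it was over all liver ACRs. Peaks of the 3 liver lists joined into 95 ACRs near the family, and 43 of them, or 45.3%, were called at all 3 ages, against 37.5% of all 181415 liver ACRs. Adult liver alone had 15 (15.8%, against 11.3% of all), newborn liver alone 9 (9.47%, against 11.6%) and suckling liver alone 8 (8.42%, against 20.4%). The adult-only ACRs belonged to CEBPG (5), CEBPB (4), CEBPD (4) and CEBPA (2). Newborn-only ACRs belonged to CEBPB (5), CEBPA (3) and CEBPG (1). Newborn and suckling liver shared 11 (11.6%, against 10.0%), suckling and adult liver 8 (8.42%, against 5.37%), and newborn and adult liver 1 (1.05%, against 3.82%). The family's shares for adult liver alone and for all ages were thus above those of the genome and the share for suckling liver alone below. An IDR of 0.05 or lower was reached by 50.4% of all adult, 33.8% of all suckling and 19.2% of all newborn liver peaks. With that threshold, 13 ACRs near the family were called at all ages, 16 in adult, 8 in suckling and 0 in newborn liver alone. Each list was also cut to its 57126 strongest peaks by replicate 2 alone. This left 20 at all ages, 13 in adult, 3 in suckling and 3 in newborn liver alone. The same cut by replicate 1 alone left 28, 14, 6 and 4. Shares of all liver ACRs were not recomputed at these settings, so these counts have no background beside them.

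Among newborn tissues the family had 110 ACRs. All 6 tissues shared 12 (10.9%, against 8.04% of all 249826). Liver alone had 20 (18.2%, against 13.3%), of which CEBPB had 8, CEBPA and CEBPG 5 each, CEBPD 2 and CEBPE 0. The liver-only count was 5 with an IDR of 0.05 or lower, 8 with lists of equal length, 8 without replicate 1 and 16 without replicate 2. The count in all 6 tissues was 2, 5, 6 and 7. The settings without a replicate also cut every list to 57126 peaks, and shares of all ACRs were not recomputed at any of them. Spleen alone had 15 (13.6%, against 8.11%), mostly around CEBPA (9) and CEBPG (6), which lie side by side on chromosome 6 and share some of them. Kidney alone had 10 (9.09%), although kidney-only ACRs made up 18.2% of all. Muscle alone had 4 (3.64%, against 5.01%), lung alone 3 (2.73%, against 6.93%) and heart alone 2 (1.82%, against 5.02%).

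Over all 8 lists, 12 of the 132 ACRs (9.09%) were called in every list, against 6.55% of all ACRs. Another 12 (9.09%) were called at all 3 liver ages and in no other tissue, against 4.66% of all. CEBPB and CEBPG had 4 of these each, and CEBPA and CEBPD 2 each. A single list held 52 (39.4%, against 48.4%). The members are few and the regions of a locus are not independent of each other, so these shares are counts, with no test.

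**Figure D5:**
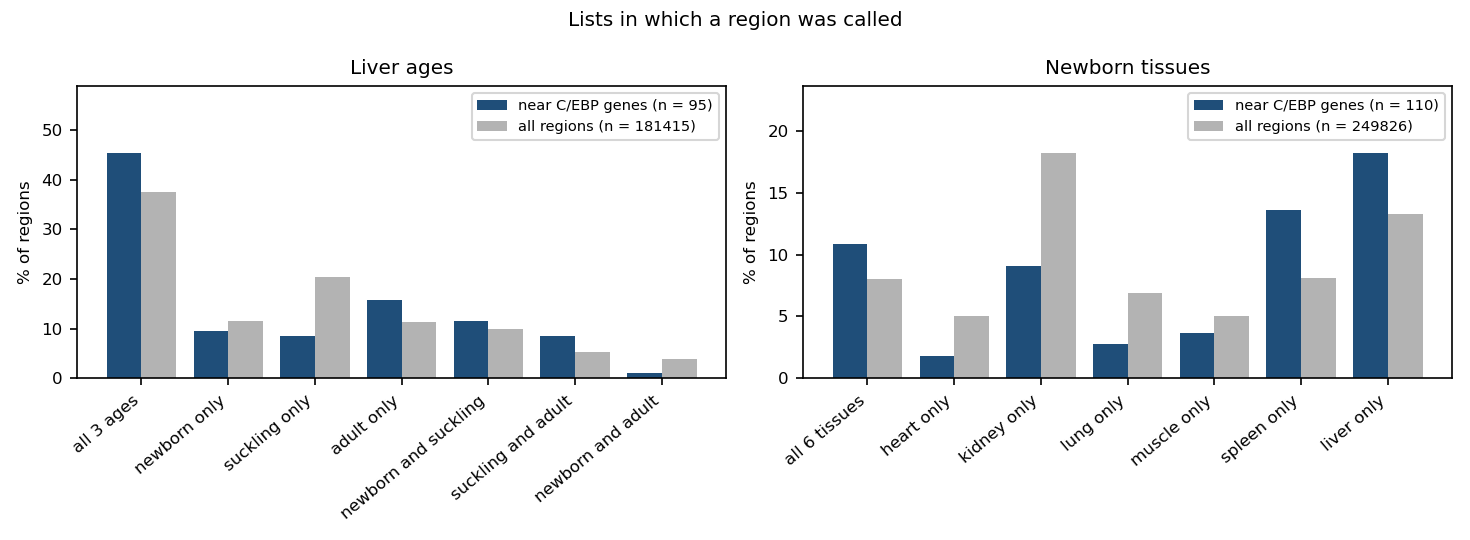
Share of ACRs (y axis, %) called in the lists named on the x axis, for ACRs within 50 kb of the C/EBP genes (dark) and all ACRs (grey). Left, the 3 liver ages, where 15.8% were adult-only near the family and 11.3% overall; right, the 6 newborn tissues, where 18.2% were liver-only near the family and 13.3% overall.

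The 50 kb limit cut through stretches with and without strong peaks. In adult liver, the outermost peak inside the limit of CEBPA, at 44927 bp from the gene, had percentiles of 95.6 and 89.9, and the nearest outside, at 50361 bp, 46.8 and 41.4. The same pair had 41.2 and 19.5 against 55.3 and 64.9 for CEBPB, 38.0 and 1.03 against 65.1 and 78.5 for CEBPD, 68.7 and 70.6 against 29.9 and 10.9 for CEBPE, and 28.4 and 50.8 against 6.11 and 10.1 for CEBPG.

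Genes that encode partners and regulators of the C/EBP proteins mostly had a promoter peak in every list, as did 56.7% of all PCGs. Of 10 relatives and partners, 8 had one in all 8 lists. BATF, an AP-1 family zipper protein, had none in heart and muscle, and BATF3 had none in muscle. All 9 regulators matched by name, among them STAT3 and IL6R of the interleukin-6 pathway and TRIB1, which targets C/EBPα for degradation, had one in all 8 lists. COP1 was not matched.

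Target genes were then counted, for which the shares of all PCGs with a promoter peak serve as background: 73.5%, 74.8% and 69.7% in newborn, suckling and adult liver and 61.4% to 75.1% in the other tissues. Of 10 acute-phase and plasma protein genes, 9 had a promoter peak in newborn liver and 10 in suckling and in adult liver, but 1 in heart, 2 in kidney, 3 in lung, 2 in muscle and 0 in spleen. ALB, encoding albumin, was the gene without one in newborn liver, and had 80.0 and 42.3 in suckling and 86.7 and 69.3 in adult liver. The promoter of C3, a complement component, had 77.3 and 11.2 in newborn, 81.2 and 61.2 in suckling and 76.5 and 71.4 in adult liver, and was listed elsewhere in lung (59.3 and 36.5). CRP, the C-reactive protein gene, was listed in liver alone, with 74.6 and 37.2, 59.8 and 63.6, and 74.1 and 66.8. The fibrinogen gene FGA was likewise liver-only, at 92.7 and 84.4, 92.5 and 78.7, and 88.9 and 84.0. Replicates of C3 and FGA overlapped between all liver ages, while for CRP both adult replicates lay above the suckling ones.

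Of the 9 glucose, urea and detoxification targets that were matched (G6PC1 was not), 8 had a promoter peak at each liver age, against 3 in kidney and in spleen and 1 in heart, lung and muscle. ADH1C, an alcohol dehydrogenase, had 83.4 and 46.7 in newborn, 72.6 and 52.2 in suckling and 90.5 and 80.3 in adult liver. CYP3A29, a drug-metabolising cytochrome, had 80.3 and 3.55, 30.9 and 58.9, and 76.5 and 55.9. GYS2, liver glycogen synthase, had replicates far apart, at 93.6 and 5.52, 13.8 and 56.4, and 94.4 and 0.531. OTC, of the urea cycle, had 73.0 and 33.3, 82.8 and 70.8, and 77.4 and 76.6. None of these 4 was listed in another tissue.

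Of the adipocyte and myeloid targets, somewhat smaller shares than of all PCGs had a promoter peak in liver. With so few genes in each set, most of these counts were near the background. Adipocyte targets had 5, 5 and 3 of 8 at the 3 liver ages and 3 to 5 elsewhere. ADIPOQ, encoding adiponectin, had 84.1 and 13.3, 57.5 and 44.5, and 81.6 and 77.2 at these ages, and was listed in lung (63.0 and 71.0) and spleen (58.8 and 71.0). LEP, the leptin gene, was listed in kidney (64.9 and 36.1) and newborn liver (1.35 and 33.8), and PLIN1, encoding a lipid droplet protein, in suckling liver alone (41.7 and 60.9). LPL, lipoprotein lipase, was listed at no liver age but in heart (84.8 and 83.1), muscle (90.4 and 85.3), kidney (40.9 and 66.7) and, with both replicates below all of these, spleen. Granulocyte and macrophage targets had 6, 5 and 5 of the 9 matched at the liver ages (CSF2RA was not matched), 5 in spleen, 4 in kidney, 2 in lung and 1 in heart and in muscle. CSF1R, the macrophage growth factor receptor, had 35.4 and 65.5 in newborn, 56.1 and 52.5 in suckling and 12.1 and 15.1 in adult liver, and 66.7 and 67.8 in spleen. ITGAM, an integrin of myeloid cells, had 23.9 and 38.2, 58.5 and 68.7, and 22.7 and 34.8 at the liver ages, and 76.3 and 50.2 in spleen. CSF3R, the granulocyte growth factor receptor, was listed in newborn (22.3 and 54.8) and suckling liver (58.1 and 65.3), spleen (56.4 and 47.7) and kidney (8.28 and 51.1) and not in adult liver, whereas ELANE, neutrophil elastase, was listed in adult liver alone (20.3 and 8.31).

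Genes whose promoter percentiles over the 16 libraries were most like those of each member were found by Pearson's r, counting an uncalled promoter as 0. CEBPA was most like HOGA1 (r = 0.957), TAPBPL (0.956) and RRN3 (0.953). CEBPB was most like FOXK1 (0.902), ADAR (0.861) and PIGV (0.86), and CEBPD like MAP4 (0.985) and LOC100739098 (0.981). CEBPE was most like SPP1 (0.949), CLK3 (0.878) and GSS (0.877), and CEBPG like LOC110259558 (0.899), GNG12 (0.895) and ALK (0.891). Between members the highest r was 0.633, for CEBPA and CEBPB. These values describe the best of 19560 genes over 16 libraries that share animals and lists, and carry no test.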

How the data were processed

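ATAC-seq had been run on 16 libraries, 2 in each of 8 groups of tissue and age. The authors aligned reads with Bowtie2, filtered them with SAMtools 1.3.1, called peaks in each replicate with MACS2 and matched replicates by IDR. The deposited lists give, per matched peak, each replicate's −log10 p and a scaled IDR score, in which 540 stands for an IDR of 0.05. The lists give no read counts, so precision is shown by the spread of 2 replicates only. From these values, peaks on the chromosomes were joined into regions where they overlapped by at least 1 bp, and assigned to genes of RefSeq Sscrofa11.1 (Python 3.11.15, pandas 2.3.3, numpy 2.4.6). Each replicate's −log10 p was ranked within its list. Functions were tested on simulated data. The members and gene lists were chosen with earlier results of these data known. Regions named are the member promoters and, per gene and liver age pattern, the strongest region, with the liver-only, single-tissue and printed ones added after values were seen; from the target lists, the first 4 genes alphabetically of those listed in 1 to 7 lists were taken. Alternatives were the IDR threshold, equal list lengths, 1 replicate, the overlap, the window, the promoter and the pattern. One gene of the likeness ranking and one sequence are not reported here.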

Additional observations from a re-analysis of the deposited data

How the results depend on the processing

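Counts near the family were recomputed under other settings. The same counts over all ACRs and PCGs were not, so no background stands beside them. The cause of each shift was not tested except that a stricter threshold, a shorter list or a smaller window leaves fewer peaks. With an IDR of 0.05 or lower, ACRs near the family numbered 68 in place of 132, those at all liver ages 13 (43), newborn-only 0 (9), shared by 6 newborn tissues 2 (12) and liver-only among them 5 (20), and 0 promoters were called in all 8 lists (5). With every list cut to 57126 peaks, the same counts were 23 at all ages, 4 newborn-only, 5 suckling-only (8), 5 in all 6 tissues and 8 in liver only, and 3 promoters. For these counts, the settings with 1 replicate (the other left out) also cut every list to 57126 peaks, ranked by that replicate. Total ACRs then ranged from 85 to 96, against 95 with the cut to equal length alone. Those at all ages ranged from 20 to 28, newborn-only from 3 to 4, suckling-only from 3 to 6 and adult-only from 13 to 14 (15). Those of all 6 tissues ranged from 6 to 7, liver-only from 8 to 16 and promoters from 3 to 4. Within 20 kb, the counts were 60 in all, 23 at all ages, 4 newborn-only, 4 suckling-only, 9 adult-only and 13 liver-only; within 100 kb they were 238, 74, 21, 23, 20 (adult-only), 22 in all 6 tissues and 38 liver-only. Mean promoter percentile, 81.0, ranged from 79.9 to 82.2 with 1 replicate in the uncut lists. It was 77.2 among an equal number of top peaks, a setting chosen after seeing the data. That mean leaves out the promoter peaks lost by the cut, so the 2 means cover different peaks. The adult-minus-newborn difference in the share with TTGCNNAA, 7.71 points, was 5.34 at the IDR threshold and 9.84 with equal lengths. It was 5.62 within 50 bp, 0.1 for TTGCGCAA, and 2.6 to 14 with 1 replicate in lists cut to 57126 peaks. No paired analysis was possible because no result comes from a test between groups. By the study's methods the newborn tissues came from the same pair of animals, and differences within an animal were not computed.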
